A study of Mus musculus with 4 samples.

Results

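The genes described here are 10 genes of the circadian clock, Per1, Per2, Per3, Cry1, Ciart, Nr1d1, Nr1d2, Dbp, Arntl and Clock, taken by symbol from the 55403 features of the count matrices. They were measured by single-nucleus RNA sequencing, which counts unique molecular identifiers (UMIs, tags that mark single RNA molecules) in nuclei of frozen mouse hippocampus. There were 4 libraries: 1 of WT mice, 2 of PS19 mice and 1 of TG_PS19 mice. PS19 mice carry human MAPT with the P301S change (1N4R tau) behind the Prnp promoter, on a B6;C3 background, and TG_PS19 mice carry this transgene together with SORLA overexpressed from the Rosa26 locus by a CMV/β-actin promoter element, so that PS19 and TG_PS19 share the tau transgene and WT is labelled with neither. The groups were littermates kept on a 12 h light cycle, and hippocampi were pooled before nuclei were isolated. Age, sex, number of animals per pool and the hour of collection are not given in the labels used here. They do not say either if the 2 PS19 libraries stem from 1 pool or 2, so the p-values measure only the spread between these 2 libraries, which may be technical.

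The mammalian clock is a feedback loop of transcription that runs in most cell types, glia and neurons of the hippocampus included. CLOCK and BMAL1 (the product of Arntl) bind E-boxes together and activate Per, Cry, Nr1d, Dbp and Ciart genes; PER and CRY proteins then repress this activation, and REV-ERB proteins (Nr1d1, Nr1d2) repress Arntl through ROR elements. Arntl therefore peaks in about the opposite phase to Per, Nr1d and Dbp. Samples collected at another hour could differ in these genes in opposite directions in cell types whose clocks keep the same time. The size of such a difference would depend on the hours and on how strongly each gene cycles in each cell type. The hour of collection is not given, so its part was not tested.

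The promoters show which of these elements lie near the start sites. RefSeq (build GRCm38.p6) gave promoter windows of 300 bases for 9 of the 10 genes. Per2 was not among them. The windows were searched on both strands for the E-box CACGTG, the E-prime box CACGTT, the D-boxes TTATGTAA and TTACGTAA and the cyclic AMP response element TGACGTCA. ROR elements were searched as TAGGTCA. The letters TGGGTCA were searched as another spelling of this element, and so were the letters TAGGTTA. E-boxes were found in Per1, Cry1 and Ciart, against 7.15% of all 32851 promoters. E-prime boxes were found in Cry1 and Nr1d1 (4.68% of all promoters), the D-box TTATGTAA in Per3 (0.938%), ROR elements in Arntl (any of the 3 spellings, 7.81%), and the cyclic AMP response element in none of the 9 (1.79%). No match overlapped another. A match describes these letters only, and no match says only that they are not in this window. Below are the 250 bases before the start of Per3 (chr4:151044666-151044915, minus strand), which passed the test in more cell classes than any other of the 10 in PS19 against WT, and for comparison those of Ciart (chr3:95882229-95882478, minus strand) and Cry1 (chr10:85185055-85185304, minus strand), with D-boxes, E-boxes and the E-prime box in capitals. For Arntl, 30-base windows around its 2 ROR elements are shown (chr7:113207493-113207522 and chr7:113207529-113207558, plus strand), since both lie at or just after the start.
Per3: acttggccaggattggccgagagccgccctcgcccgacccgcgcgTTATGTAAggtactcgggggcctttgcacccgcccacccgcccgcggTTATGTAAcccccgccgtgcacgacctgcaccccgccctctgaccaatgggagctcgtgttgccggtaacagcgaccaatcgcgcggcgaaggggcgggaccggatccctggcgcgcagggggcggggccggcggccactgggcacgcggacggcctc
Ciart: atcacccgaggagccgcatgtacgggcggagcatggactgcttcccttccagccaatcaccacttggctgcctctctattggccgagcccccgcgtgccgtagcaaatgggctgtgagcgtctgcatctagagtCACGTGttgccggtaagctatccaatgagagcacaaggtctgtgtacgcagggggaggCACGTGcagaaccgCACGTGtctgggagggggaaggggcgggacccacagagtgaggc
Cry1: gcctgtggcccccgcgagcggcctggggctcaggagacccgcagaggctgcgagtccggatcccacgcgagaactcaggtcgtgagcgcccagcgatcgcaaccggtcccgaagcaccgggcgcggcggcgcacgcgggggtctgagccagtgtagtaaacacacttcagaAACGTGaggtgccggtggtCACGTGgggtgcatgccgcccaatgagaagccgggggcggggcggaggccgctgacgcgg
Arntl, first element: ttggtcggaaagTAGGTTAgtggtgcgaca
Arntl, second element: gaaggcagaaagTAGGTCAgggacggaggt

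Libraries held 4643 to 12762 barcodes and 20064025 to 48670533 UMIs, with a median of 2643 to 3708.5 UMIs per nucleus. After filters, 4467 to 11458 nuclei per library remained, and 11 marker-defined cell classes had at least 50 nuclei in every library. In these classes at least 6 of 8 markers were raised (8 of 9 for inhibitory neurons). Library pairs shared 5 to 32 barcodes. TG_PS19 stood apart in sex-linked RNA: 4538 of its nuclei had Xist UMIs without Y-linked UMIs and 2183 the reverse, whereas 5 to 26 nuclei had only Xist in each other library. The TG_PS19 library thus held nuclei of both kinds and the others almost none with Xist alone, so sex, animal and hour of collection cannot be told apart from genotype in any comparison with it. PS19 libraries had fewer astrocytes (13.9% and 14.8% of named nuclei, against 25.2% in WT and 20.3% in TG_PS19) and more oligodendrocytes (42.1% and 40.6%, against 30.4% and 37.6%). Comparisons were therefore made within classes.

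The values below are UMIs of a gene per 1000000 UMIs of its class, scaled by the trimmed mean of M-values (normalised CPM). They are compared between libraries, not between genes, because they are not corrected for gene length. Of 110 pairs of gene and class, 100 passed the filter on low counts and were tested by edgeR with Benjamini-Hochberg adjustment over all genes of the class. WT and TG_PS19 had 1 library each, so the spread in every fit came from the 2 PS19 libraries. Fits within a class and of sums over classes had 1 residual degree of freedom.

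Against WT, PS19 oligodendrocytes had more Per1, Per2, Per3, Cry1 and Ciart RNA and less Arntl RNA, PS19 astrocytes more Per3 and Ciart and less Arntl, endothelial cells more Per3 and CA1 pyramidal neurons more Nr1d2. In PS19 against WT, 11 of 100 pairs passed the test at an adjusted p under 0.05, 9 higher and 2 lower; among all 133547 gene and class pairs 3.07% passed, 1.54% higher and 1.54% lower. An unadjusted p under 0.05 was reached by 30 of the 100, against 11.4% of all pairs. In TG_PS19 against PS19, 7 pairs passed, 2 higher and 5 lower (background 5.01%, 3.21% higher and 1.8% lower), and 24 had an unadjusted p under 0.05 (background 14.6%). In TG_PS19 against WT, 1 pair passed, higher (background 2.24%, 1.58% higher and 0.658% lower), and 19 had an unadjusted p under 0.05 (background 11%). The median log2 fold change of the 100 pairs was 0.27, -0.27 and 0.05 in these comparisons, while the median of all genes lay between -0.03 and 0.02 in every class. The first and the second comparison share the PS19 libraries, so opposite signs in them are not independent. DESeq2 on the same sums passed 1, 1 and 0 pairs (7, 6 and 1 at an unadjusted p under 0.05), Arntl in astrocytes in the first and second comparison.

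By class, PS19 against WT had 6 of 10 genes past the test in oligodendrocytes (background 6.74%), 3 in astrocytes (5.99%), 1 in endothelial cells (0.427%) and 1 in CA1 pyramidal neurons (1.93%). TG_PS19 against PS19 had 3 in oligodendrocytes (8.45%), 3 in astrocytes (9.29%) and 1 in oligodendrocyte precursors (2.0%). The 1 pair of TG_PS19 against WT lay in oligodendrocytes (3.11%). Passes did not follow the size of the change. The median log2 fold change of the tested clock genes in PS19 against WT was highest in endothelial cells, at 0.68, and lowest in CA1 pyramidal neurons, at 0.03. It was 0.52 in oligodendrocytes and 0.25 in astrocytes.

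**Figure D1:**
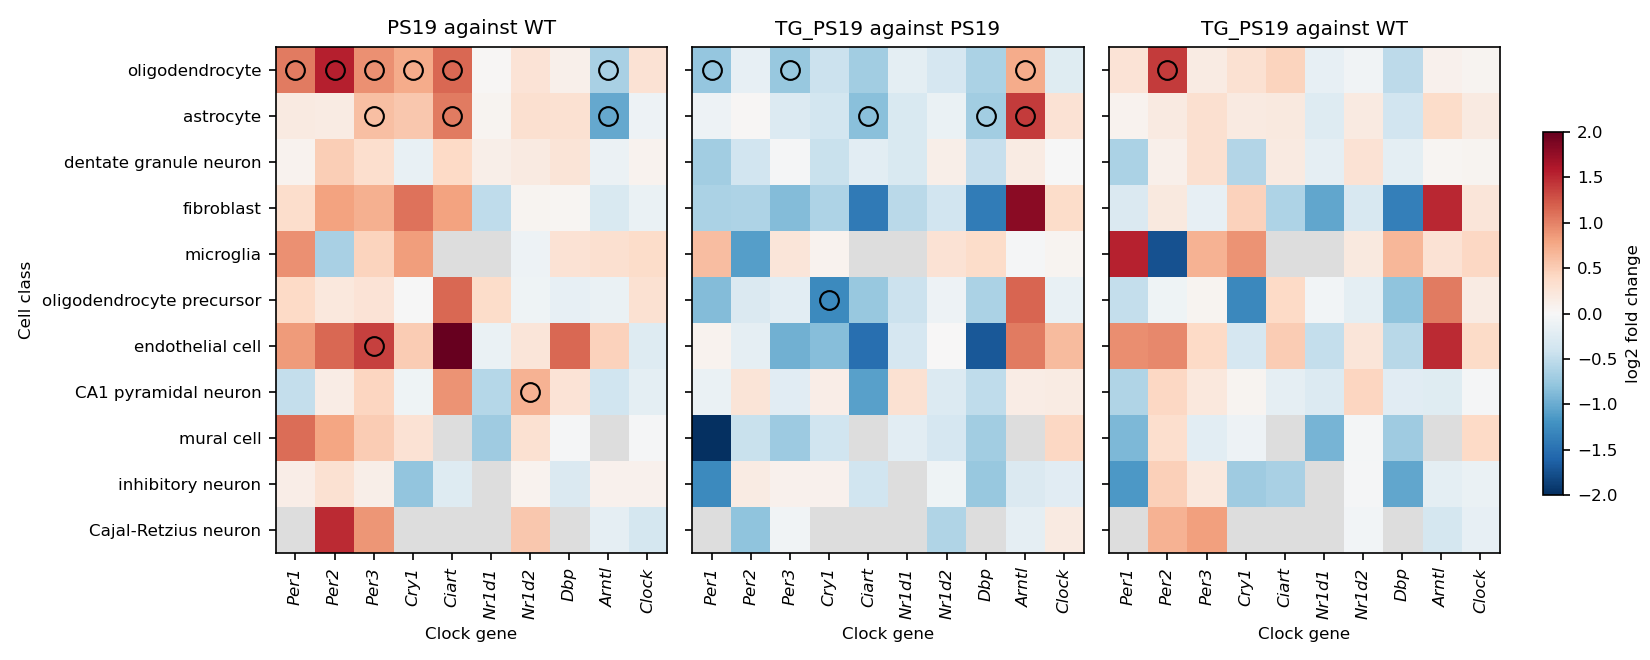
Log2 fold change, on a colour scale from -2 to 2, of the 10 clock genes (horizontal axis) in each of 11 cell classes (vertical axis) for PS19 against WT, TG_PS19 against PS19 and TG_PS19 against WT; circles mark pairs that passed the edgeR test, and grey fields were not tested. Circles lie mostly in the oligodendrocyte and astrocyte lines, with 6 and 3 genes in PS19 against WT.

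Arntl (chr7:113207465-113314126, GRCm38), the gene of the activator BMAL1, had its smallest adjusted p in astrocytes in both comparisons with PS19. There it stood at 108 CPM in WT, 50.2 and 55.4 CPM in the PS19 replicates and 139 CPM in TG_PS19. Both PS19 libraries were below WT and TG_PS19, and the TG_PS19 library as a whole was the highest. Its nuclei with Xist and without Y-linked UMIs did not exceed WT, as given further on. The log2 fold change was -1.03 (adjusted p = 8.76e-10, SE 0.15) in PS19 against WT and 1.39 (adjusted p = 8.58e-18, SE 0.15) in TG_PS19 against PS19.

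In oligodendrocytes, the myelin-forming cells, Arntl was lower overall but followed the same order, at 23.5 CPM in WT, 16.6 and 13.5 CPM in the PS19 replicates and 25.1 CPM in TG_PS19. Its log2 fold change was -0.65 (adjusted p = 0.0255, SE 0.20) in PS19 against WT and 0.74 (adjusted p = 0.0069, SE 0.20) in TG_PS19 against PS19. In neurons the differences were smaller than in these 2 classes and none passed. Dentate granule neurons held 53.3 CPM in WT, 48.7 and 49.1 CPM in the PS19 replicates and 54.8 CPM in TG_PS19, with a log2 fold change of -0.12 (adjusted p = 0.788, SE 0.13) in PS19 against WT. Inhibitory neurons held 43.2 CPM in WT, 46.8 and 45.2 CPM in the PS19 replicates and 37.6 CPM in TG_PS19. The values of these 2 neuron classes lay close together. CA1 pyramidal neurons, in contrast, held 102 CPM in WT, 74.1 and 81.4 CPM in the PS19 replicates and 86.7 CPM in TG_PS19, with both PS19 libraries below WT as in astrocytes and oligodendrocytes, at a log2 fold change of -0.39 (adjusted p = 0.268, SE 0.16). Cajal-Retzius neurons held 78.5 CPM in WT, 86.3 and 54.7 CPM in the PS19 replicates and 61.4 CPM in TG_PS19, with the PS19 replicates on either side of WT, so that 3 of 4 neuron classes had a log2 fold change below 0 in PS19 against WT. Microglia held 23.8 CPM in WT, 30.1 and 29.6 CPM in the PS19 replicates and 29.2 CPM in TG_PS19, with WT lowest and no pass. In fibroblasts and oligodendrocyte precursors TG_PS19 alone was high. Fibroblasts held 9.58 CPM in WT, 9.18 and 6.35 CPM in the PS19 replicates and 27.3 CPM in TG_PS19 and precursors 12.9 CPM in WT, 12.8 and 10.97 CPM in the PS19 replicates and 26.4 CPM in TG_PS19; neither passed the test (adjusted p = 0.317 and 0.0677 in TG_PS19 against PS19).

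Clock (chr5:76209868-76304792), which encodes the partner of BMAL1, passed no test in any class. Its tested pair with the smallest p was in oligodendrocytes, at 181 CPM in WT, 215 and 229 CPM in the PS19 replicates and 187 CPM in TG_PS19. The log2 fold change was 0.29 (adjusted p = 0.166, SE 0.12) in PS19 against WT. Clock RNA is known to cycle little in most tissues. Over the 11 classes its log2 fold changes ran from -0.35 to 0.36 in PS19 against WT, 5 classes higher and 6 lower.

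**Figure D2:**
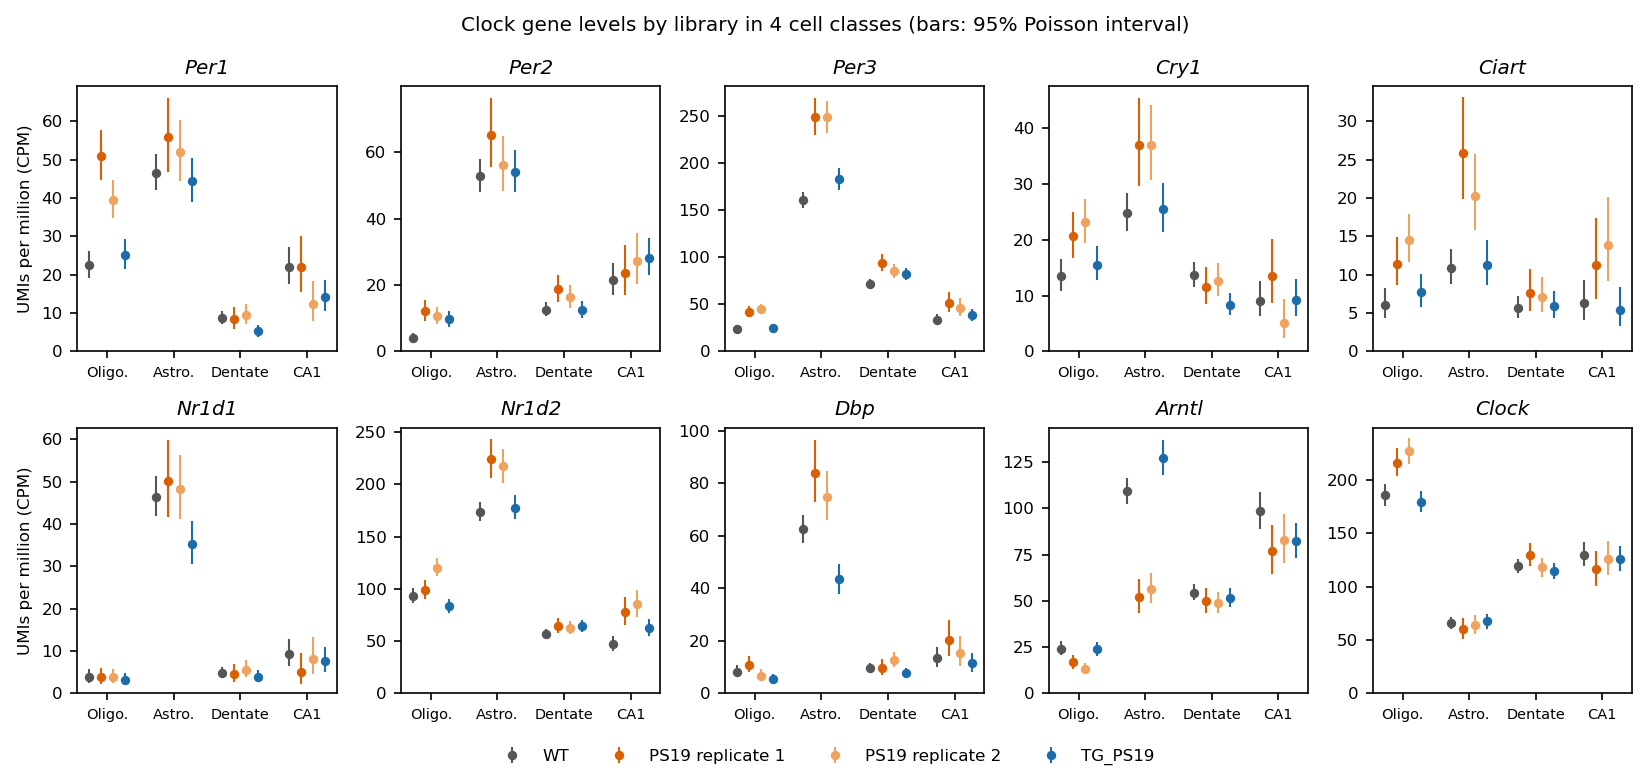
CPM before scaling of each clock gene (panels, each with its own vertical axis) in oligodendrocytes, astrocytes, dentate granule neurons and CA1 pyramidal neurons of the 4 libraries, with 95% Poisson intervals that cover counting error only. In astrocytes the 2 PS19 libraries lie below WT and TG_PS19 for Arntl and above both for Per3, and in dentate granule neurons the 4 libraries lie close together for Arntl.

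Among the repressors, Per3 (chr4:151003652-151044665) passed the test in 3 classes in PS19 against WT, and its log2 fold change was above 0 in all 11. In oligodendrocytes it stood at 23.1 CPM in WT, 41.8 and 45.1 CPM in the PS19 replicates and 25.8 CPM in TG_PS19, so that both PS19 libraries were above the other 2. The log2 fold change was 0.91 (adjusted p = 1.64e-05, SE 0.16) in PS19 against WT and -0.75 (adjusted p = 0.000549, SE 0.16) in TG_PS19 against PS19. Astrocytes showed the same order with a smaller difference, at 159 CPM in WT, 239.6 and 243 CPM in the PS19 replicates and 200.02 CPM in TG_PS19. PS19 was higher than WT by 0.60 (adjusted p = 0.000463, SE 0.14) on the log2 scale. Endothelial cells, which line the vessels, held 86.5 CPM in WT, 255 and 195 CPM in the PS19 replicates and 114 CPM in TG_PS19, with a log2 fold change of 1.36 (adjusted p = 0.0432, SE 0.33) in PS19 against WT. Per3 in fibroblasts had close PS19 values but did not pass, at 261 CPM in WT, 423 and 427 CPM in the PS19 replicates and 232 CPM in TG_PS19 (adjusted p = 0.0822 against WT and 0.07 for TG_PS19 against PS19). In dentate granule neurons Per3 stood at 70.2 CPM in WT, 92.1 and 85.4 CPM in the PS19 replicates and 87.3 CPM in TG_PS19, with TG_PS19 beside the PS19 libraries and no pass (adjusted p = 0.0925 for PS19 against WT). Per3 overlaps Camta1 on the same strand, and how the counting assigned shared reads is not given in the sources used here.

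Per1 (chr11:69095217-69109960), a period gene that also responds quickly to light and hormone signals, was higher in PS19 oligodendrocytes. These held 21.8 CPM in WT, 50.5 and 39.7 CPM in the PS19 replicates and 26.3 CPM in TG_PS19. The PS19 libraries did not overlap the other 2, with a log2 fold change of 1.04 (adjusted p = 1.42e-06, SE 0.17) against WT and -0.77 (adjusted p = 0.000454, SE 0.17) for TG_PS19 against PS19. Astrocytes, in contrast, held 46.1 CPM in WT, 53.8 and 50.7 CPM in the PS19 replicates and 48.6 CPM in TG_PS19, and neither comparison passed there. Mural cells, the contractile cells of vessel walls, had PS19 replicates that were far apart, at 49.9 CPM in WT, 135 and 85.8 CPM in the PS19 replicates and 26.6 CPM in TG_PS19. In them the log2 fold change of -2.02 (adjusted p = 0.0926, SE 0.55) in TG_PS19 against PS19 missed the threshold.

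Per2 (chr1:91415982-91459324), a period gene needed for a stable rhythm, was low in oligodendrocytes of WT. It stood at 3.8 CPM in WT, 11.97 and 10.6 CPM in the PS19 replicates and 10.1 CPM in TG_PS19 there, with WT alone low. Log2 fold changes were 1.56 (adjusted p = 0.0003, SE 0.33) in PS19 against WT and 1.40 (adjusted p = 0.014, SE 0.37) in TG_PS19 against WT; the second was the 1 clock gene pair that passed in that comparison. Restricted to the TG_PS19 nuclei with Y-linked and without Xist UMIs, which held 5 Per2 UMIs, it turned to -0.51. In astrocytes Per2 was at 52.3 CPM in WT, 62.9 and 54.8 CPM in the PS19 replicates and 59.3 CPM in TG_PS19, which differed little between libraries. Fibroblasts held 55.8 CPM in WT, 109 and 86.8 CPM in the PS19 replicates and 63.8 CPM in TG_PS19 and endothelial cells 37.6 CPM in WT, 93.1 and 76.6 CPM in the PS19 replicates and 73.8 CPM in TG_PS19, both highest in PS19 without passing (adjusted p = 0.264 and 0.322 in PS19 against WT).

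Cry1 (chr10:85131700-85185064), a cryptochrome that represses CLOCK and BMAL1, was 13.1 CPM in WT, 20.5 and 23.3 CPM in the PS19 replicates and 16.3 CPM in TG_PS19 in oligodendrocytes. PS19 exceeded WT by 0.74 (adjusted p = 0.0151, SE 0.21) on the log2 scale. Oligodendrocyte precursors held 24.3 CPM in WT, 15.8 and 30.7 CPM in the PS19 replicates and 9.92 CPM in TG_PS19, where the PS19 replicates were far apart and TG_PS19 was lowest. TG_PS19 against PS19 gave -1.27 (adjusted p = 0.0449, SE 0.38) there, between -1.62 and -0.66 with 1 PS19 library left out, and the call was lost under 6 alternative settings. In inhibitory neurons WT was the highest without a pass, at 30.2 CPM in WT, 14.98 and 18.9 CPM in the PS19 replicates and 18.4 CPM in TG_PS19.

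Ciart (chr3:95878503-95882251), also called Chrono, encodes a repressor of CLOCK and BMAL1 and had 3 E-boxes in its promoter. Its counts were low. Astrocytes held 10.7 CPM in WT, 24.9 and 19.8 CPM in the PS19 replicates and 12.3 CPM in TG_PS19, with both PS19 libraries highest. Log2 fold changes were 1.04 (adjusted p = 0.00149, SE 0.25) in PS19 against WT and -0.84 (adjusted p = 0.0248, SE 0.27) in TG_PS19 against PS19. In oligodendrocytes it stood at 5.92 CPM in WT, 11.4 and 14.6 CPM in the PS19 replicates and 8.05 CPM in TG_PS19, with a log2 fold change of 1.15 (adjusted p = 0.00417, SE 0.29) in PS19 against WT. All 8 tested classes had a negative log2 fold change in TG_PS19 against PS19, from -1.502 in endothelial cells to -0.22 in dentate granule neurons. Microglia and mural and Cajal-Retzius cells had too few Ciart UMIs to be tested. C920021L13Rik lies antisense to Ciart, and the strand setting of the counting is not given in the sources used here.

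The REV-ERB genes encode the nuclear receptors that repress Arntl. Nr1d2 (chr14:18204054-18239127) passed the test only in CA1 pyramidal neurons and there only in PS19 against WT, which does not show that CA1 differs from other classes. It stood at 49.1 CPM in WT, 75.2 and 83.4 CPM in the PS19 replicates and 65.9 CPM in TG_PS19, with a log2 fold change of 0.69 (adjusted p = 0.0133, SE 0.18). Nr1d2 in astrocytes was 172 CPM in WT, 216 and 212 CPM in the PS19 replicates and 195 CPM in TG_PS19, highest in PS19 but with an adjusted p of 0.186. Nr1d1 (chr11:98767932-98775333) passed in no single class. Its smallest p in a class was in fibroblasts, at 56.4 CPM in WT, 35.6 and 43.4 CPM in the PS19 replicates and 27.3 CPM in TG_PS19, where TG_PS19 against WT gave -1.04 (adjusted p = 0.302, SE 0.37). In PS19 against WT, Nr1d1 was higher in 4 classes and lower in 4. Nr1d1 overlaps Thra on the opposite strand.

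Dbp (chr7:45705088-45710203), an output gene whose product activates D-box promoters, was lower in TG_PS19 than in PS19 astrocytes. These held 61.9 CPM in WT, 81.04 and 73.2 CPM in the PS19 replicates and 47.6 CPM in TG_PS19, with a log2 fold change of -0.69 (adjusted p = 0.000949, SE 0.17) in TG_PS19 against PS19. Fibroblasts held 105 CPM in WT, 127 and 88.9 CPM in the PS19 replicates and 40.98 CPM in TG_PS19 and endothelial cells 45.1 CPM in WT, 105 and 97.3 CPM in the PS19 replicates and 30.8 CPM in TG_PS19, with TG_PS19 lowest in both and no pass (adjusted p = 0.144 and 0.0815 against PS19). Dbp overlaps Sphk2 on the opposite strand.

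Whether these genes moved alike in all classes was tested as a difference between classes. In PS19 against WT the change differed between classes for 5 of 10 genes, Per1 (adjusted p = 0.00603), Per2 (0.00825), Arntl (0.0137), Cry1 (0.0172) and Per3 (0.0213), where 9.38% of all 18782 genes passed. In TG_PS19 against PS19 it differed for Arntl (7.01e-08) and Per3 (3.08e-05; background 6.6%), and in TG_PS19 against WT for Arntl (0.0121; background 2.97%). Ciart, Nr1d1, Nr1d2, Dbp and Clock passed in none of the 3, which does not show that they moved alike. With every nucleus thinned to 1000 UMIs, these counts fell to 0, 1 and 0. With only the TG_PS19 nuclei kept that had Y-linked and no Xist UMIs, Per3 no longer passed in PS19 against WT. The WT and PS19 counts were the same in that fit.

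Averaged over classes with equal weight, Per3 moved in PS19 against WT by 0.44 in neurons and 0.69 in the other cells on the log2 scale, as a description without a test. Per1 gave -0.09 and 0.69, and Cry1 -0.34 and 0.57. Cry1 was below 0 in each of the 3 neuron classes tested. Inhibitory neurons were lowest, at -0.79, from 8 and 18 UMIs in the PS19 replicates. In CA1 pyramidal neurons the PS19 replicates lay on either side of WT, at 13.5 and 5.13 CPM against 9.09 CPM before scaling. Per1 was not uniform: 2 of 3 neuron classes were above 0, and CA1 pyramidal neurons alone were below, at -0.47, with PS19 replicate 1 near WT (21.1 and 22.8 CPM) and replicate 2 lower (12.1 CPM). In the same order for PS19 against WT, Per2 gave 0.61 and 0.57, Nr1d2 0.37 and 0.14, and Arntl -0.15 and -0.22. Ciart gave 0.35 and 1.23, Dbp 0.09 and 0.25, Nr1d1 -0.22 and -0.15, and Clock -0.10 and 0.06. Single classes lay far from these means. Per2 ran from -0.64 in microglia to 1.56 in oligodendrocytes. Its neuron mean included Cajal-Retzius neurons, with 5 UMIs in WT and 6 and 10 in the PS19 replicates. Arntl ran from -1.03 in astrocytes to 0.46 in endothelial cells, which held 8 UMIs in WT and 7 and 5 in the PS19 replicates. In TG_PS19 against PS19, Arntl gave -0.04 in neurons and 1.02 in the other cells. The latter included fibroblasts at 1.81, from 18 UMIs in TG_PS19. Dentate granule neurons, with 484 to 1607 nuclei per library, had no clock gene past edgeR's test in any comparison, against 2.96%, 8.87% and 5.84% of all genes, and none past DESeq2's. At an unadjusted edgeR p under 0.05 they had 2, 1 and 4 of 10 genes, against 12.6%, 20.2% and 17.0%.

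**Figure D3:**
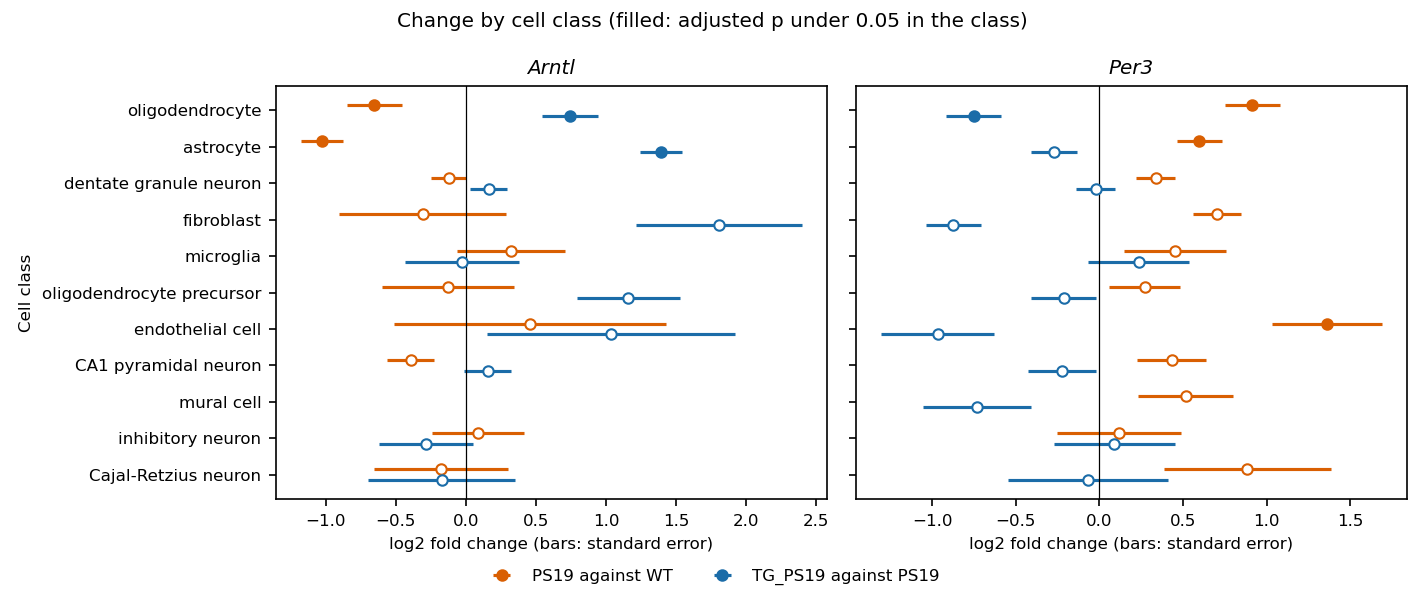
Log2 fold change with standard error of Arntl and Per3 in each tested class; filled points passed the edgeR test within the class. Arntl in TG_PS19 against PS19 runs from -0.29 in inhibitory neurons to 1.81 in fibroblasts, and Per3 in PS19 against WT is above 0 in every class.

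Summed over the tested classes, where class shares also enter, 3 of 10 genes passed in PS19 against WT (background 8.15%). Arntl gave a log2 fold change of -0.69 (adjusted p = 0.000183, SE 0.10), Ciart 0.85 (adjusted p = 0.00156, SE 0.15) and Per3 0.36 (adjusted p = 0.0217, SE 0.09). Fewer nuclei of a class and less RNA per nucleus cannot be told apart in such sums. With each class given equal weight, the mean log2 fold change in PS19 against WT was -0.19 for Arntl, 0.90 for Ciart and 0.60 for Per3. For Arntl, 3 of 10 tested classes were higher and 7 lower. TG_PS19 against PS19 had 6 genes pass (background 15.6%). Arntl was higher, at 0.76 (adjusted p = 4.86e-05, SE 0.10), and Ciart, Dbp, Per1, Cry1 and Per3 were lower, at log2 fold changes of -0.79, -0.74, -0.55, -0.48 and -0.32. In TG_PS19 against WT, Dbp at -0.73 (adjusted p = 0.00531, SE 0.15) and Nr1d1 at -0.60 (adjusted p = 0.0248, SE 0.16) were lower (background 6.96%).

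Within the astrocyte class, 2 clusters gave the same order for Arntl. The cluster led by Rorb and Slc1a2 held 111 CPM in WT, 62.8 and 63.4 CPM in the PS19 replicates and 126 CPM in TG_PS19 before scaling. The cluster led by Myoc and Gfap, genes of fibrous astrocytes, held 82.3 CPM in WT, 29.6 and 46.5 CPM in the PS19 replicates and 166 CPM in TG_PS19. In both, the 2 PS19 libraries were below WT and TG_PS19. Per3 in these clusters was 167 CPM in WT, 284 and 278 CPM in the PS19 replicates and 186 CPM in TG_PS19 in the first and 119 CPM in WT, 183 and 174 CPM in the PS19 replicates and 119 CPM in TG_PS19 in the second.

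**Figure D4:**
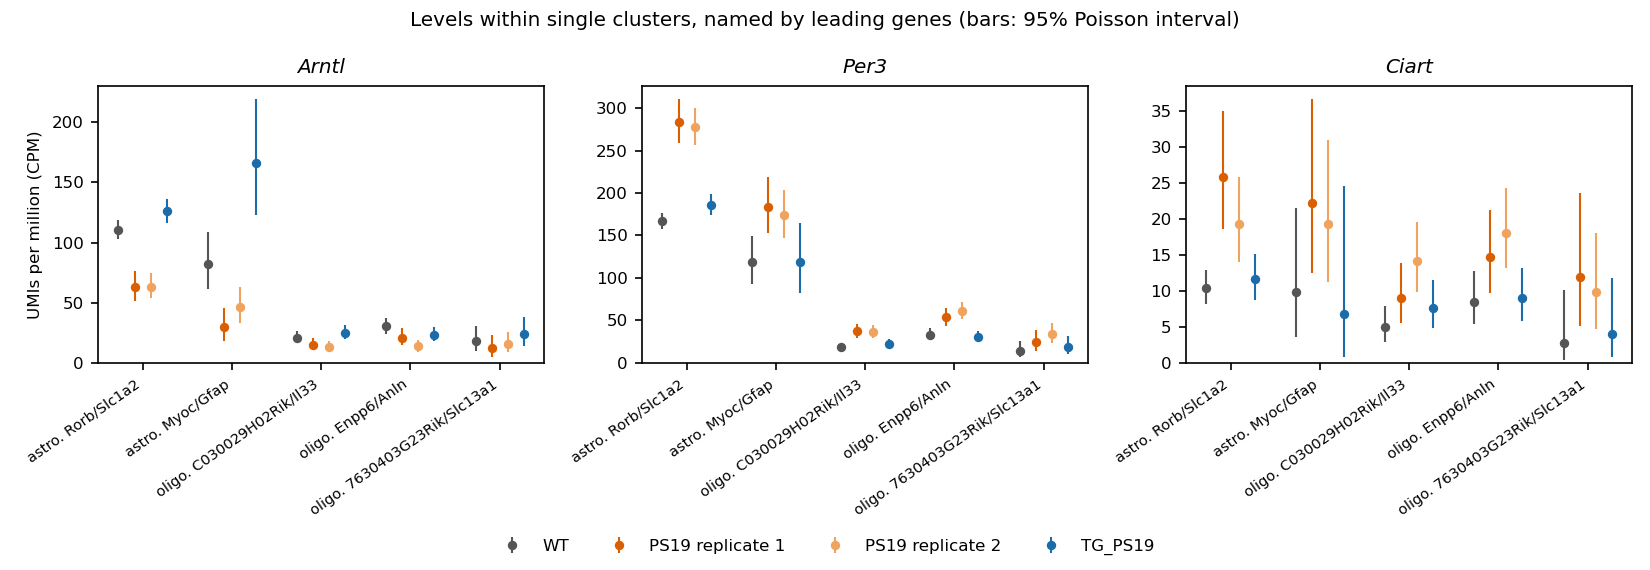
CPM before scaling of Arntl, Per3 and Ciart in 5 single clusters of astrocytes and oligodendrocytes, named by leading genes, in the 4 libraries, with 95% Poisson intervals that cover counting error only. Arntl in PS19 lies below WT and TG_PS19 in both astrocyte clusters shown, and Per3 in PS19 lies above WT in each cluster shown.

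The TG_PS19 library could be split by sex-linked UMIs, although sex, animal and hour of collection cannot be told apart in this split. Nuclei with Xist and no Y-linked UMI are called Xist-called, and the reverse Y-called; the values have exact Poisson intervals and no test, since they come from 1 library. In astrocytes (879 Xist-called and 477 Y-called nuclei, median 3056 and 3255 UMIs), Arntl was 88.04 CPM (95% interval 77.5 to 99.6) in Xist-called nuclei and 169 CPM (149.7 to 190.3) in Y-called nuclei. Per1 was 63.8 CPM (95% interval 54.9 to 73.8) in Xist-called nuclei and 17.8 CPM (11.9 to 25.6) in Y-called nuclei. Ciart was 16.5 CPM (95% interval 12.1 to 21.9) in Xist-called nuclei and 4.3 CPM (1.73 to 8.87) in Y-called nuclei. Arntl was thus higher in Y-called nuclei and Per1 and Ciart lower. For Arntl, WT astrocytes at 109 CPM before scaling lay between the Xist-called and Y-called nuclei. The PS19 replicates, at 52.1 and 56.7 CPM, lay below both. Of the 10 genes, 7 had non-overlapping intervals with the higher value in Xist-called astrocytes and 1, Arntl, with the higher value in Y-called ones, against 5.78% of all genes with at least 20 UMIs in these nuclei. The 7 were Per1, Per2, Per3, Cry1, Ciart, Nr1d2 and Dbp.

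Oligodendrocytes (1170 and 826 nuclei, median 2077 and 2212.5 UMIs) showed the same split. Per1 was 46.2 CPM (95% interval 38.3 to 55.2) in Xist-called nuclei and 10.2 CPM (6.24 to 15.8) in Y-called nuclei. Per3 was 39.3 CPM (95% interval 32.1 to 47.7) in Xist-called nuclei and 10.7 CPM (6.64 to 16.4) in Y-called nuclei. Dbp counted 28 UMIs in Xist-called and 1 UMI in Y-called nuclei, or 10.7 and 0.511 CPM. Period genes and Dbp were thus lower in Y-called oligodendrocytes, while Arntl was 16.4 CPM (95% interval 11.9 to 22.1) in Xist-called nuclei and 29.6 CPM (22.5 to 38.3) in Y-called nuclei, with intervals just apart. Before scaling, WT oligodendrocytes held Arntl at 24.2 CPM and the PS19 replicates at 16.8 and 13.4 CPM. Xist-called nuclei thus lay between the PS19 replicates and below WT. In all, 6 genes were higher in Xist-called and 2 (Arntl and Clock) in Y-called oligodendrocytes, against 5.82% of all genes compared.

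In dentate granule neurons (701 and 214 nuclei) no clock gene had intervals apart, against 3.3% of all genes. Per3 was 83.5 CPM (95% interval 76.2 to 91.4) in Xist-called nuclei and 83.2 CPM (70.8 to 97.2) in Y-called nuclei, and Arntl was 49.8 CPM (95% interval 44.2 to 55.9) in Xist-called nuclei and 54.9 CPM (44.9 to 66.5) in Y-called nuclei. The counts of CA1 pyramidal neurons gave none apart either (3.31% of all genes). Nor did microglia, oligodendrocyte precursors and inhibitory neurons, where 3 to 6 of the genes reached 20 UMIs (backgrounds of 1.45%, 2.32% and 6.75%). With so few UMIs, this does not show that they lacked the split. In precursors, Arntl was 19.8 CPM in Xist-called and 31.4 CPM in Y-called nuclei, and Per2 61.1 and 38.0 CPM, in the directions seen in astrocytes. Nr1d1, at 7.43 and 9.91 CPM, went the other way. Fibroblasts had 2 of 7 genes apart, Per2 and Per3, both higher in Xist-called nuclei (background 5.02%). In all neurons together, Per3 alone was apart, at 71.6 CPM (95% interval 65.9 to 77.6) in Xist-called nuclei and 57.5 CPM (50.03 to 65.8) in Y-called nuclei (background 7.62%).

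**Figure D5:**
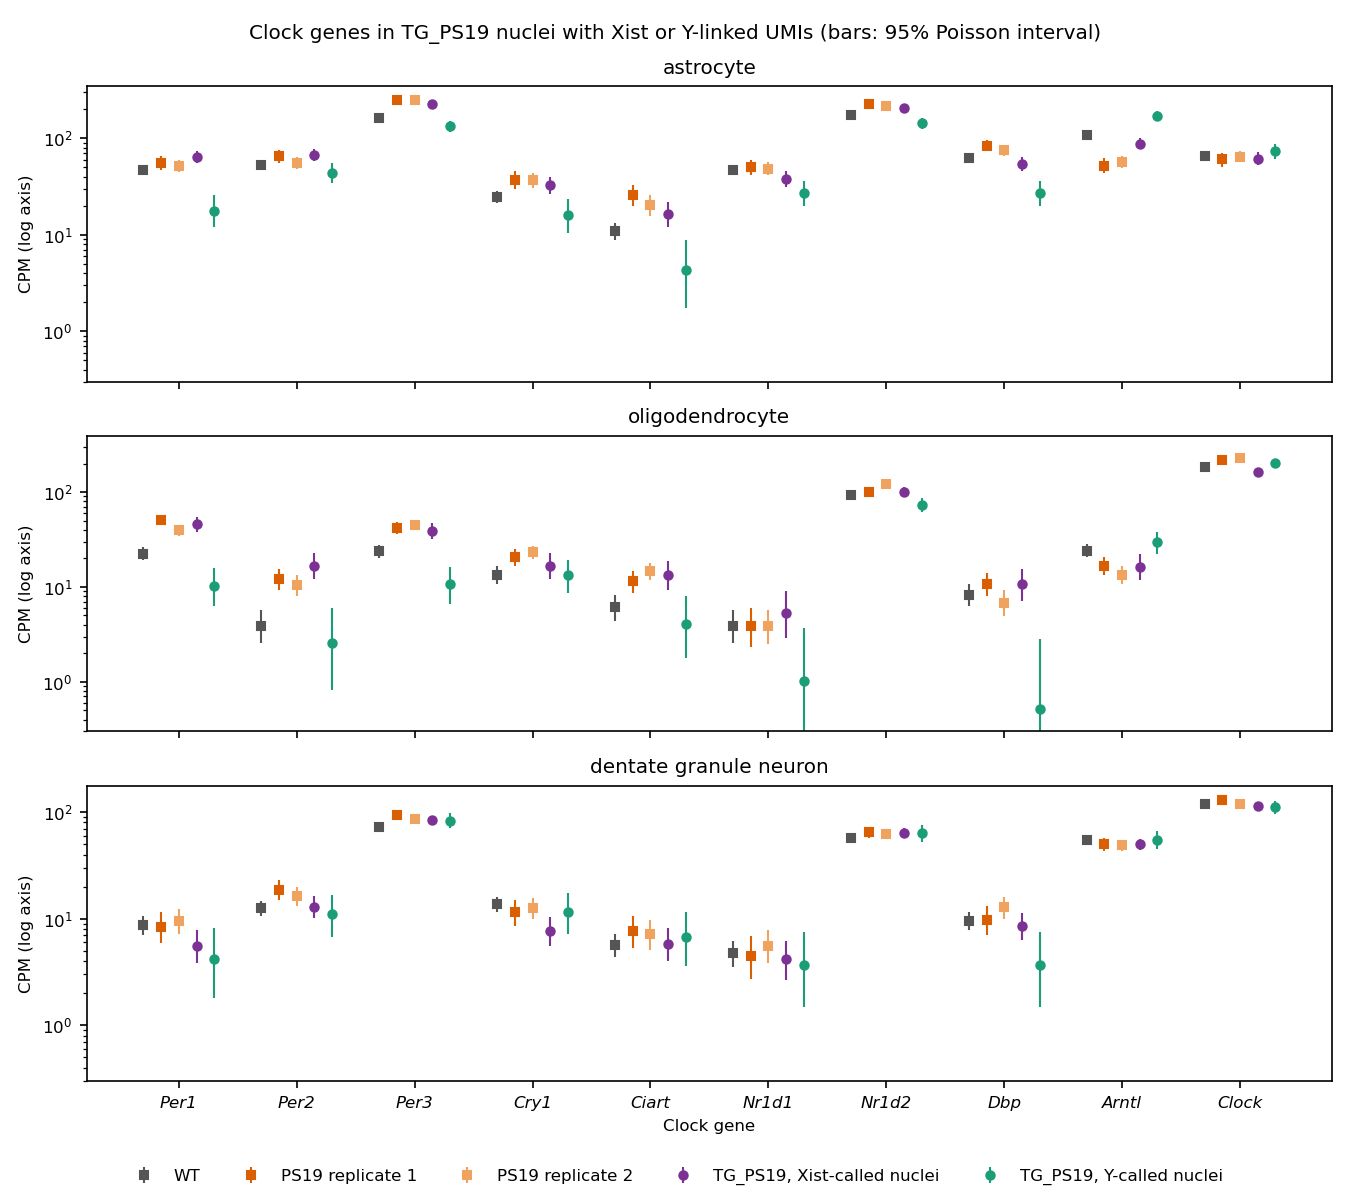
CPM before scaling of the 10 clock genes in Xist-called and Y-called nuclei of the TG_PS19 library beside the other libraries, in astrocytes, oligodendrocytes and dentate granule neurons, on a logarithmic axis with 95% Poisson intervals; the lowest bars end at the axis. In astrocytes and oligodendrocytes Y-called nuclei have lower Per1, Per3, Ciart and Dbp and higher Arntl than Xist-called nuclei, and in dentate granule neurons the intervals of the 10 genes overlap.

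When only Y-called nuclei of TG_PS19 were kept, 97 pairs could be tested. Some groups were then small, with 55 fibroblasts, 34 mural, 31 endothelial and 17 Cajal-Retzius nuclei. All of these but the fibroblasts lay under the minimum of 50 nuclei. Several values below rest on few UMIs in Y-called nuclei: fibroblasts held 0 for Per2 and 1 for Dbp. Oligodendrocytes held 5 for Per2 and 1 for Dbp, and dentate granule neurons 7 for Dbp. In TG_PS19 against PS19, 19 pairs passed, 2 higher and 17 lower (background 3.47%, 2.16% higher and 1.31% lower), and in TG_PS19 against WT, 6 passed, 1 higher and 5 lower (background 1.22%, 0.824% higher and 0.397% lower). Arntl in astrocytes gave 1.79 (adjusted p = 5.01e-24, SE 0.16) and Per1 in oligodendrocytes -2.07 (adjusted p = 6.41e-11, SE 0.28) in TG_PS19 against PS19. Astrocytes and oligodendrocytes had 7 genes each past the test, Arntl higher and 6 lower in each. Fibroblasts had 3 (Per2, Per3 and Dbp), mural cells 1 and dentate granule neurons 1 (both Dbp, the latter at -1.55 (adjusted p = 0.038, SE 0.50)). Against WT, Arntl in astrocytes was higher by 0.76 (adjusted p = 0.00132, SE 0.17) on the log2 scale, and Dbp and Per1 were lower. The change differed between classes for Per2, Per3 and Arntl in TG_PS19 against PS19 (background 3.8%), and for Arntl in TG_PS19 against WT (background 1.39%).

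Of 20 other clock genes, all were tested somewhere, in 170 pairs. Against WT, PS19 had 5 pairs higher and 4 lower; TG_PS19 against PS19 had 8 higher and 4 lower, and TG_PS19 against WT 2 and 2 (median log2 fold changes 0.03, -0.08 and -0.03). That is 5.29%, 7.06% and 2.35% of the 170 pairs, near the 3.07%, 5.01% and 2.24% of all gene and class pairs. Bhlhe41 (Dec2), a repressor of E-box promoters, was 38.4 CPM in WT, 70.4 and 64.7 CPM in the PS19 replicates and 42.1 CPM in TG_PS19 in astrocytes. Its log2 fold change there was 0.81 (adjusted p = 6.06e-05, SE 0.17) in PS19 against WT and -0.68 (adjusted p = 0.00231, SE 0.17) in TG_PS19 against PS19. Hlf, a D-box activator like Dbp, was lower in PS19 microglia, at 107 CPM in WT, 18.04 and 30.8 CPM in the PS19 replicates and 108 CPM in TG_PS19, with -2.09 (adjusted p = 9.81e-11, SE 0.29) against WT. Npas2, a Clock paralogue, was 65.5 CPM in WT, 41.2 and 49.8 CPM in the PS19 replicates and 46.7 CPM in TG_PS19 in dentate granule neurons, a log2 fold change of -0.51 (adjusted p = 0.00318, SE 0.13) in PS19 against WT. Kinases, ligases and other regulators of clock proteins had 1 of 82 pairs higher in PS19 against WT and 1 lower in TG_PS19 against WT.

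Other lists that can move with the hour or with handling were measured beside the clock genes, and their part in the clock gene differences was not tested. Glucocorticoid-responsive genes had 24 of 82 pairs higher and none lower in PS19 against WT, 10 lower and none higher in TG_PS19 against PS19, and 17 higher and 1 lower in TG_PS19 against WT (median log2 fold changes 0.54, -0.14 and 0.36). Of the pairs past the test, those of TG_PS19 were thus mostly above WT too. Over all gene and class pairs the shares past the test were 3.07%, 5.01% and 2.24% in these comparisons, here and for the lists that follow. Fkbp5, a cochaperone induced by glucocorticoids, was 5.55 CPM in WT, 23.7 and 26.5 CPM in the PS19 replicates and 15.2 CPM in TG_PS19 in astrocytes (log2 fold change 2.18 (adjusted p = 1.23e-12, SE 0.28) in PS19 against WT). Activity-induced early genes had 4 of 58 pairs higher and 4 lower in PS19 against WT, 10 lower and 1 higher in TG_PS19 against PS19, and 7 lower and none higher in TG_PS19 against WT (medians 0.02, -0.86 and -0.73). Junb was 13.1 CPM in WT, 83.02 and 79.9 CPM in the PS19 replicates and 6.07 CPM in TG_PS19 in astrocytes, high in both PS19 libraries. Cold-inducible and heat shock genes had 3 of 55 pairs higher in PS19 against WT, 2 lower in TG_PS19 against PS19, and 1 higher and 3 lower in TG_PS19 against WT.

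Among the genes most like Arntl across 10 classes and 4 libraries, with each class centred, were Gm48765 (Pearson r = 0.669), Atp6v0b (0.664), Gm48742 (0.661) and 4921511C10Rik (0.650), out of 4897 genes tested in each of those classes. These are descriptions over 40 points that share libraries, with no p. Among the clock genes tested in every one of the 10 classes, Clock gave 0.346, Per2 -0.197, Nr1d2 -0.431 and Per3 -0.433.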

How the data were processed

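Count matrices of 4 libraries of hippocampal nuclei were analysed as deposited; they hold raw UMI counts per gene and barcode, which the authors made with Cell Ranger 7.1.0 on GRCm38, per the submitters' processing notes. The annotation release, intron counting and strand setting are not given in the sources used here. Nuclei under 500 UMIs or 300 genes or above 5% mitochondrial UMIs, and simulated-doublet neighbours with the highest scores (3.70 to 10.2% of barcodes), were left out; the rest were clustered (leidenalg 0.10.2, resolution 1) and classes named from marker lists. UMIs were summed per library and class and tested with edgeR 4.0.16 (quasi-likelihood, TMM, filterByExpr, R 4.3.3), adjusted by Benjamini-Hochberg over all genes of a class at 0.05; differences between classes used 1 fit with class by genotype terms and a PS19 library term. The clock genes, lists and tests were chosen with earlier results of these data known. For each clock gene the pairs past the test are named, or else the pair with the smallest p; of the other lists, at most 4 genes past the test are named; results for some genes that this rule would name are not reported here. Scripts were tested on simulated data. Alternatives were DESeq2 1.42.0, other scalings and filters, doublets kept, thinning, resolution 2, each PS19 library left out, and Y-called TG_PS19 nuclei alone. Depth was 20064025 to 48670533 UMIs per library. Poisson intervals cover counting error only. Standard errors (SE) were worked back from the edgeR test, as the absolute log2 fold change divided by the square root of its F statistic.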

Additional observations from a re-analysis of the deposited data

Results flagged for a closer look

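For 5 genes the change in PS19 against WT differed between cell classes by a test of the difference itself, with edgeR adjusted p-values of 0.00603 (Per1), 0.00825 (Per2), 0.0213 (Per3), 0.0172 (Cry1) and 0.0137 (Arntl). The same test gave 3.08e-05 for Per3 and 7.01e-08 for Arntl in TG_PS19 against PS19, and 0.0121 for Arntl in TG_PS19 against WT. Ependymal nuclei were too few to be tested, with 38 in PS19 replicate 1 and 61 in WT. Their values in PS19 replicate 1 were above WT: Per2 stood at 109 CPM against 19.2 CPM in WT, and Per3 at 289 CPM against 125 CPM.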

How the results depend on the processing

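Of 19 gene and class pairs past the test, 18 kept their direction under every alternative that gave a value and 2 kept their call under all, Arntl in astrocytes in PS19 against WT and in TG_PS19 against PS19. Per2 in oligodendrocytes in TG_PS19 against WT reversed, from 1.40 to -0.51 on the log2 scale, with Y-called TG_PS19 nuclei alone. These nuclei held 5 Per2 UMIs. Xist-called TG_PS19 nuclei were not fitted alone, so how the calls hold in them was not tested. Before scaling, Per1 in Xist-called oligodendrocytes was 46.2 CPM, between the PS19 replicates at 50.9 and 39.5 CPM. Arntl in Xist-called astrocytes was 88.04 CPM, above the PS19 replicates at 52.1 and 56.7 CPM. Counts of pairs past the test, from 11 (PS19 against WT), 7 (TG_PS19 against PS19) and 1 (TG_PS19 against WT), became 1, 1 and 0 with DESeq2, and 17, 12 and 4 with doublets kept. Thinning to 1000 UMIs gave 6 in the first and 0 in the third, library totals 11 in the second, Y-called nuclei 19 in the second and 6 in the third, and no filter, relative log expression scaling and the robust prior 2 each in the third. For sums over classes, the first comparison moved from 3 to 5 with relative log expression scaling, 5 with library totals, 1 with DESeq2 and 8 with thinning. The second moved from 6 to 2 with DESeq2, and the third from 2 to 0 with DESeq2 and 4 with Y-called nuclei. Differences between classes moved from 5, 2 and 1 to 0, 1 and 0 with thinning. With Y-called TG_PS19 nuclei alone, Per3 no longer passed this test in PS19 against WT, and Per2 newly passed it in TG_PS19 against PS19. The causes of these shifts were not tested. With 1 PS19 library left out, values had no test: Arntl in astrocytes ranged from -1.11 to -0.97 in PS19 against WT and from 1.33 to 1.47 in TG_PS19 against PS19, and Cry1 in oligodendrocyte precursors from -1.62 to -0.66. No paired analysis was possible because the groups compared share fewer than 2 replicate numbers. WT and TG_PS19 had 1 library each, so differences between these mice and between collections cannot be told apart from genotype.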

Other observations

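Some classes were too small to be tested. Ependymal nuclei (21 to 61 per library) held Arntl at 67.05 CPM in WT, 15.6 and 6.5 CPM in the PS19 replicates and 144 CPM in TG_PS19, from 14, 2, 1 and 10 UMIs. Per3 in them was 125 CPM in WT, 289 and 247 CPM in the PS19 replicates and 57.6 CPM in TG_PS19. CA3 pyramidal neurons (26 to 65 nuclei) held Arntl at 52.4 CPM in WT, 36.5 and 56.3 CPM in the PS19 replicates and 35.01 CPM in TG_PS19, with the PS19 replicates on either side of WT.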
